A study of Mus musculus with 3 samples.

Results

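The cytotoxic and NK-like transcripts were those of 10 genes among 50600 counted: the pore-forming protein gene Prf1, the granzyme genes Gzma, Gzmb, Gzmk and Gzmm, the granule membrane gene Nkg7, the receptor genes Klrd1 and Klrk1, the chemokine gene Ccl5 and the death ligand gene Fasl. The 10 genes were chosen by name, from their levels in these same libraries, and each was found through its Ensembl identifier. Their levels and the order of those levels are therefore a description with no test. The rule that names them uses no measure of the spread among libraries.

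The material was primary T cells of C57BL/6NJ mice in 3 RNA libraries, biological replicates 2, 3 and 4 of a single group. The labels name a CD4+ T cell differentiation protocol, and the alignments named in the count tables carry the words Th0, activated and 0 h. Age was unknown, sex was not collected, and all 3 libraries share a donor identifier while each has its own biosample, so that the number of animals is not given. The p-values measure only how these libraries differ, in part perhaps technically. The assay name says total RNA, and the linked library protocol says poly(A).

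Gene counts summed to 47432940, 59698913 and 28340521 in replicates 2, 3 and 4. All 8 CD4 T cell identity genes were above 1 TPM in every library, with the receptor gene Trac, the kinase gene Lck and Cd5 on top at means of 3374, 1715 and 1049 TPM, and the coreceptor gene Cd4 at 1018, 1067 and 1048 TPM in replicates 2, 3 and 4. Replicate 2 stood apart in Xist, the RNA of the inactive X chromosome, at 151 TPM, against 0.221 and 0.399 TPM in replicates 3 and 4. Ddx3y, a gene on the Y chromosome, ran the other way, at 0.248 TPM in replicate 2 and 80.0 and 72.3 TPM in replicates 3 and 4. Sex thus differed between replicate 2 and the other libraries, and differences among libraries below include it. TPM here are counts divided by the summed exon length of the gene and scaled to the same total in each library, and every level below is given in the order of replicates 2, 3 and 4.

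Cytotoxic lymphocytes kill through granules that hold perforin, which opens pores in the target membrane, and granzymes, serine proteases that enter through them and start apoptosis. A separate route uses Fas ligand, which engages the receptor Fas on the target. CD8 T cells, NK cells and some CD4 T cells use both routes, and naive T cells carry little granule protein before activation.

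In these libraries perforin mRNA was abundant and granzyme mRNA scarce. Of the 10 genes, 7 reached 1 TPM in all 3 libraries (Prf1, Klrd1, Fasl, Gzma, Nkg7, Ccl5 and Gzmm) and 3 did not (Gzmb, Gzmk and Klrk1). The same threshold was met by 23.4% of all genes and by 46.1% of 21764 protein-coding genes. These shares belong beside every count of detected genes below, and the gene lists were written with earlier results of these data known. The median over the 10 genes was 5.42 TPM, against 0.418 TPM over all protein-coding genes and 33.4 TPM over the protein-coding genes that reached the threshold. In bulk RNA, fewer cells that carry a transcript and less of it per cell cannot be told apart, and this holds for each level below.

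**Figure D1:**
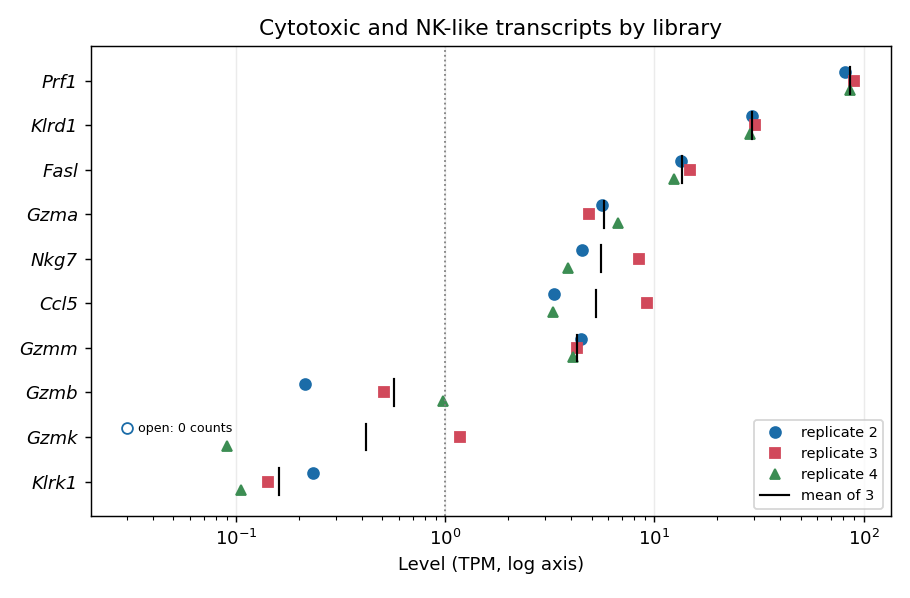
Level of each of the 10 genes (TPM, log axis) in replicates 2, 3 and 4, with the mean of the 3 libraries as a vertical bar and the 1 TPM threshold dotted. Prf1, Klrd1 and Fasl sit at the top with 3 close points each, while Nkg7, Ccl5 and Gzmk have replicate 3 to the right of the other libraries.

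Prf1 encodes perforin itself (ENSMUSG00000037202.6, mm10 chromosome 10, 61297833 to 61304680, plus strand). It had 2785, 3880 and 1782 counts, or 81.8, 90.2 and 86.5 TPM. The libraries lay close together, with a mean of 86.2 ± 4.18 TPM (SD, n = 3). Prf1 ranked 2161st of the 21764 protein-coding genes by mean level, at percentile 90.1. Its counts divided among the libraries nearly as all counts did, with 33.0%, 45.9% and 21.1% of 8447 counts, beside 35.0%, 44.1% and 20.9% of all counts.

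The 4 granzyme genes together had 477 counts, and their summed level was 10.3, 10.8 and 11.9 TPM. Gzma encodes the tryptase granzyme A (chromosome 13, 113093825 to 113100979, minus strand) and had 65, 71 and 47 counts, or 5.62, 4.86 and 6.71 TPM. Gzmm, the granzyme M gene (chromosome 10, 79689020 to 79695261, plus strand), had 86, 105 and 48 counts, or 4.44, 4.28 and 4.09 TPM. Both were present in every library, and replicate 4 was the highest for Gzma and the lowest for Gzmm.

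Gzmb encodes granzyme B, which cleaves caspases and Bid (chromosome 14, 56258856 to 56262260, minus strand). It had 4, 12 and 11 counts, or 0.214, 0.508 and 0.973 TPM, so that no library reached 1 TPM. Its mean was 0.565 TPM, and 0.361 TPM without replicate 4. Gzmk, the granzyme K gene (chromosome 13, 113171608 to 113225908, minus strand), had 0, 27 and 1 counts, or 0, 1.17 and 0.0903 TPM. Nearly all of its counts came from replicate 3, where 12.3 would be expected from the size of that library. The mean was 0.419 TPM, and 0.0451 TPM without replicate 3. The 0 counts in replicate 2 allow a level of up to 0.164 TPM, taken at 3 counts. Intervals and such limits cover counting error only.

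Prf1 exceeded every granzyme gene. Per base of exon, the pooled counts of Prf1 were 15.7 times those of Gzma (95% exact binomial interval 13.5 to 18.3) and 20.1 times those of Gzmm (17.7 to 23). In single libraries the ratio to Gzma was 14.6, 18.6 and 12.9, and that to Gzmm was 18.4, 21.1 and 21.1. Against Gzmb the pooled ratio was 172 (118 to 261), and the libraries gave 382, 177 and 88.9. The pooled ratio to Gzmk was 162 (112 to 244), and it rested on replicate 3, since it was 2455 without that library. With the summed exon length, Gzmm stood at 0.779 times Gzma (0.640 to 0.950), below Gzma in each library. This order depended on the length used: the ratio was 0.891 at the principal transcript lengths and 1.31 when exon length was left out. Gzmk stood at 0.0967 times Gzma (0.0625 to 0.144), and at 0.00564 without replicate 3.

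The granzymes share a catalytic serine, whose codon and neighbouring codons are shown because they mark these genes as members of 1 protease family. Capitals mark the serine codon, read from the GENCODE M21 transcripts, which was codon 211 in Gzma, 213 in Gzmk, 203 in Gzmb and 210 in Gzmm.
Gzma: ggggatTCTggcagccct
Gzmk: ggtgacTCTggtggccct
Gzmb: ggggatTCTggaggcccg
Gzmm: ggtgacTCTggagggccc
All 4 use the same serine codon. They were found by the 4 residues that begin the conserved stretch around the serine, which were not found in the coding sequence of Gzmc, and the full stretch of 6 residues was found in Gzmk, Gzmb and Gzmm and not in Gzma. Across the whole coding sequence, identity in global alignment was 55.5% between Gzma and Gzmk, which lie 70.6 kb apart on chromosome 13, and between 50.2% and 54.6% for the other pairs of the 4. No stretch of 50 bases of the principal transcript of any of the 10 genes occurred in another gene, and no exon of theirs overlapped an exon of another gene in the tables.

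Among the 6 other granzyme genes, 1 was detected. Gzmc (chromosome 14) had 1.87, 2.12 and 2.55 TPM, above its neighbour Gzmb in every library. Of the 50-base stretches of its transcript, 4.14% also occur in Gzmd, Gzme or Gzmg, so reads there may be lost or split. Gzmd, Gzme, Gzmf, Gzmg and Gzmn had 0 counts in all 3 libraries, which allows at most 0.0876 TPM at 3 counts over the libraries. The coding sequences of Gzmb and Gzmc were 76.2% identical, the closest pair compared.

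The genes that activate, pack and restrain granzymes were mostly present, with 10 of 12 at 1 TPM or more in every library. The chaperone gene Calr stood at 454, 469 and 434 TPM, Srgn, whose proteoglycan serglycin holds granzymes in the granule, at 158, 151 and 147 TPM, and M6pr, a sorting receptor for lysosomal cargo, at 146, 144 and 136 TPM. Ctsc, the protease that removes the granzyme propeptide, was at 46.6, 41.2 and 38.2 TPM. Serpinb9, the granzyme B inhibitor, was at 17.5, 19.0 and 16.3 TPM, above Gzmb in each library. Ctsh and Serpinb1a fell short of the threshold in at least 1 library.

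Of the listed granule transport and fusion genes, 20 of 21 measured were detected, beside 46.1% of all protein-coding genes. The list median was 81.6 TPM. The actin regulator Coro1a led at 3712, 3638 and 3696 TPM, followed by Was at 321, 334 and 324 TPM and Dock8 at 314, 327 and 328 TPM. Unc13d, the priming factor of granule fusion, stood at 236, 225 and 253 TPM. Cd63, a granule membrane tetraspanin gene, had 4 counts in all. Many of these genes also serve other vesicles and the cytoskeleton of T cells.

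Rab27a encodes the small GTPase that docks granules. It was the only one of 129 tested list genes called as varying among libraries, beside 0.489% of all genes tested. It had 137, 92.0 and 84.1 TPM, high in replicate 2. Its adjusted p was 0.00251 by edgeR's goodness of fit, and 1.00 without replicate 2.

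Nkg7 encodes a membrane protein of cytotoxic granules (chromosome 7, 43437073 to 43438249, plus strand). It had 54, 128 and 28 counts, or 4.49, 8.41 and 3.84 TPM. Replicate 3 stood above the other libraries, which lay near each other. Its mean was 5.58 ± 2.47 TPM (SD, n = 3), and 61.0% of its counts came from replicate 3.

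Klrd1 was the second most abundant of the 10 genes in every library, and Klrk1 was among the 3 that stayed under 1 TPM on average. Klrd1 encodes CD94, which pairs with NKG2 chains to bind a nonclassical MHC class I molecule (chromosome 6, 129591782 to 129598775, plus strand). It had 496, 646 and 291 counts, or 29.4, 30.3 and 28.5 TPM. The libraries differed little, with a coefficient of variation of 3.06%, the smallest among the 10 genes. Klrk1 encodes the activating receptor NKG2D (chromosome 6, 129610323 to 129623864, minus strand), and had 22, 17 and 6 counts, or 0.233, 0.142 and 0.105 TPM. With the summed exon length, no library came near 1 TPM for Klrk1.

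The 2 receptor genes lie 11.5 kb apart on opposite strands. Per base of exon, pooled counts of Klrd1 were 179 times those of Klrk1 (95% exact binomial interval 133 to 246), with 126, 213 and 272 in single libraries. The summed exons of Klrk1 cover 7183 bases, 5.66 times its principal transcript of 1270 bases. At the principal transcript lengths of both genes, the ratio was 45.2 and the mean level of Klrk1 0.904 TPM.

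The chains that pair with CD94 were near the counting floor while its ligand gene was abundant. Klrc1, the gene of the inhibitory partner NKG2A, had 6 counts over the 3 libraries, Klrc2 had 15 and Klrc3 had 2. Of the 50-base stretches of Klrc1, 26.8% also occur in Klrc2 or Klrc3, so its counts may be too low. H2-T23, which encodes the mouse ligand of CD94 with NKG2, stood at 649, 599 and 619 TPM. All libraries carried the CD94 and ligand transcripts and few counts of the NKG2 chains.

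The adaptor gene of NKG2D was abundant where the receptor gene was scarce. Hcst, which encodes DAP10, had 371, 327 and 321 TPM in the same libraries. Tyrobp, the gene of the alternative adaptor DAP12, had 3.19, 3.15 and 6.77 TPM. Across the adaptor and signalling list 9 of 10 genes were detected, led by the kinase gene Zap70 at 424, 410 and 428 TPM, Hcst, and the exchange factor gene Vav1 at 325, 325 and 319 TPM. Zap70 and Vav1 also act below the T cell receptor. Of the ligand list, 2 of 6 measured genes were detected: H2-T23 and the NKG2D ligand gene Ulbp1, at 8.55, 9.86 and 9.90 TPM. The ligand genes Raet1e and H60c had 0 counts.

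Further NK receptor genes were mostly low, with 5 of 25 detected and a median of 0.284 TPM. Cd226, the gene of an activating receptor that T cells also carry, averaged 55.3 ± 4.66 TPM (SD, n = 3). Crtam followed at 6.23, 5.35 and 5.92 TPM and the Fc receptor gene Fcgr3 at 2.97, 4.39 and 3.61 TPM. Klra5 had 0 counts. The list summed to 76.4, 76.1 and 70.9 TPM, most of it Cd226.

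**Figure D2:**
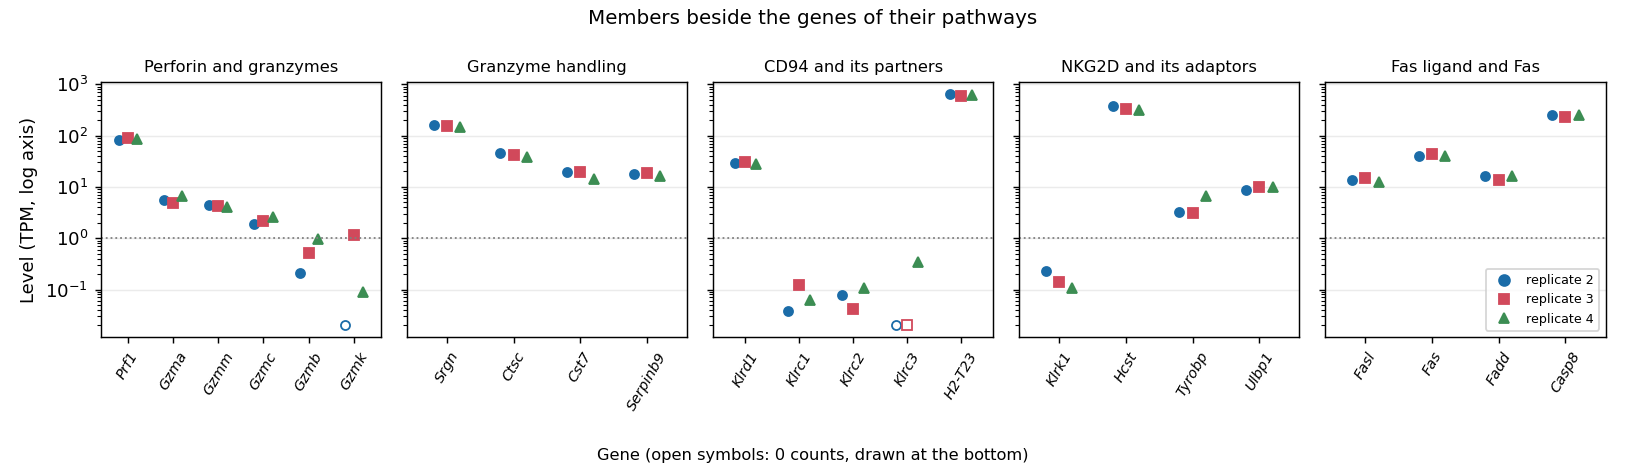
Level (TPM, log axis) of members beside the genes they work with, by library, with open symbols for 0 counts and a dotted line at 1 TPM. Prf1 stands above all granzyme genes, Klrd1 above the Klrc chains, and Hcst above Klrk1, in every library.

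Ccl5 encodes a chemokine that attracts T cells and monocytes (chromosome 11, 83525778 to 83530518, minus strand). It had 42, 147 and 25 counts, or 3.32, 9.20 and 3.27 TPM. As with Nkg7, replicate 3 was the high library and replicates 2 and 4 were nearly equal in level. By library size, 94.3 counts would be expected in replicate 3. Its mean was 5.26 ± 3.41 TPM (SD, n = 3), and 3.29 TPM without replicate 3. Its principal transcript has 532 of the 960 summed exon bases, and at that length the mean was 9.50 TPM. Of its list of chemokine and chemokine receptor genes, 2 of 10 genes were detected: Ccl4, at 4.49, 1.82 and 1.14 TPM, and Ccl3, at 1.59, 1.88 and 1.64 TPM. Xcl1 was the next, at 1.16, 0.230 and 2.64 TPM. Ccl4 was highest in replicate 2, not in replicate 3.

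Fasl, the Fas ligand gene (chromosome 1, 161780689 to 161788495, minus strand), had 341, 476 and 191 counts, or 13.4, 14.8 and 12.4 TPM. It stood below Klrd1 and above Gzma in each library. Its receptor gene Fas stood at 40.5, 43.4 and 39.8 TPM, above the ligand in all libraries. Of the Fas pathway list, 10 of 12 genes were detected, led by the initiator caspase gene Casp8 at 249, 231 and 254 TPM, Adam10, a protease that sheds Fas ligand, at 102, 103 and 91.5 TPM, and Cflar, which encodes the caspase-8 inhibitor FLIP, at 70.8, 71.5 and 71.6 TPM. Faim2 had 0 counts. Among the other TNF family ligand genes listed, not all of them death ligands, 5 of 6 were detected. Ltb was at 1464, 1608 and 1548 TPM, Lta at 61.9, 78.6 and 85.6 TPM and Tnf at 52.8, 42.3 and 44.9 TPM. The next, Tnfsf10, was at 21.7, 22.7 and 19.4 TPM.

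By mean level the order was Prf1, Klrd1, Fasl, Gzma, Nkg7, Ccl5, Gzmm, Gzmb, Gzmk and Klrk1. Neighbours whose libraries did not overlap were Prf1 and Klrd1, Klrd1 and Fasl, Fasl and Gzma, and Gzmm and Gzmb. Among Gzma, Nkg7, Ccl5 and Gzmm, with means between 4.27 and 5.73 TPM, each gene overlapped its neighbour in the order. By summed exon length, Gzmm still lay below Gzma in every library. Each of Gzmb, Gzmk and Klrk1 at the low end also overlapped its neighbour. With the length of the principal transcript in place of the summed exons, 5 of 9 neighbouring pairs kept their order, and Prf1, Klrd1 and Fasl stayed on top.

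Of 18 transcription factors listed for cytotoxic lymphocytes 15 were detected, beside 46.1% of all protein-coding genes. The list also holds factors known from other T cells, among them Tcf7, Lef1, Bach2, Gata3 and Bcl6. Its leading genes are known from naive T cells. Tcf7 stood at 3081, 2870 and 2889 TPM, Ets1 at 942, 841 and 792 TPM and Lef1 at 310, 302 and 298 TPM. Of the T-box factors that drive perforin and granzyme expression, Eomes was at 3.64, 4.81 and 5.04 TPM and Tbx21 at 1.10, 0.845 and 1.87 TPM. Runx3, which acts with them in CD8 T cells, was at 76.3, 107 and 95.3 TPM. Zeb2, Zfp683 and Tbx21 missed the threshold.

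Receptors of cytokines known to raise the cytotoxic programme were detected at 10 of 12. The common gamma chain gene Il2rg led at 646, 633 and 659 TPM, then Il27ra at 532, 490 and 488 TPM and Il21r at 484, 473 and 502 TPM. Il2rb, the beta chain for IL-2 and IL-15, was at 44.4, 48.0 and 46.4 TPM. Il12rb2 and Il18rap stayed below 1 TPM in all libraries.

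Markers of other lymphocytes were in part below or near 1 TPM and in part at the level of the members or above it. Of 12 NK cell markers 4 were detected (Gzma, Irf8, Tyrobp and Fcer1g, at means of 5.73, 5.05, 4.37 and 2.19 TPM). Gzma is itself a member, so the list is not independent of the members. Ncr1, Klrb1c, Klre1, Klra4, Klra7, Klra8, Klra9 and Cma1 missed the threshold. The 12 markers, Gzma included, summed to 19.4, 18.2 and 27.4 TPM. No NK marker was at 0 over all libraries: Ncr1 had 48 counts in all, Klrb1c, which encodes NK1.1, 66, and Cma1 5. NKT cell markers passed for 1 of 7, Il2rb (2 without replicate 2 and 3 without replicate 3), with sums of 48.8, 51.2 and 52.7 TPM, and the NKT regulator gene Zbtb16 had 7 counts. After Il2rb the highest of that list were Xcl1 and Tbx21, at means of 1.34 and 1.27 TPM.

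Among 5 CD8 T cell markers 4 were detected, with sums of 123, 152 and 137 TPM led by Runx3, Cd8b1 and Crtam. The 2 chains of the coreceptor parted: Cd8b1 had 36.5, 33.9 and 30.5 TPM and Cd8a 0.334, 0.578 and 0.690 TPM. Gamma delta T cell markers passed for 1 of 8 (2 without replicate 3), Trdc, at 10.5, 7.68 and 7.24 TPM, and the list summed to 14.2, 9.80 and 9.13 TPM, with Tcrg-C1 and Tcrg-C4 next at means of 0.980 and 0.454 TPM. Myeloid and mast cell markers passed for 2 of 11, with sums of 16.6, 18.0 and 18.2 TPM led by Cd68, Lyz2 and Itgam, and Elane, Prtn3 and Ctsg had 0 counts. Genes of antigen-experienced T cells passed for 7 of 11, with sums of 194, 210 and 206 TPM led by Id2, Il2rb and Itgb1.

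**Figure D3:**
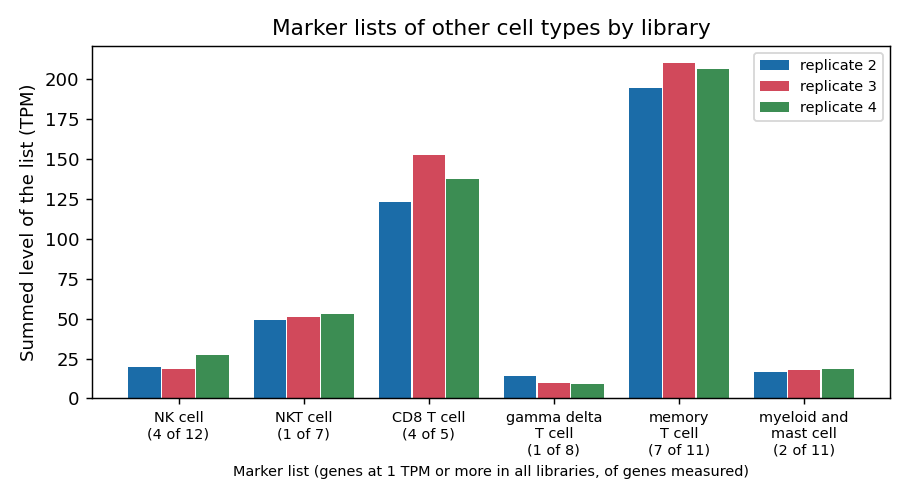
Summed level (TPM) of each marker list in replicates 2, 3 and 4, with the number of genes at 1 TPM or more in all libraries below each name. The NK cell sum, which includes the member Gzma, is highest in replicate 4 at 27.4 TPM. The CD8 T cell sum is highest in replicate 3 at 152 TPM, of which Runx3 makes up 107 TPM.

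Which of the 10 genes differed among the libraries beyond the spread of genes of like abundance was read from edgeR's goodness of fit, run on 13498 genes whose counts averaged at least 10. Of the 8 members tested, 0 passed an adjusted p of 0.05, and 0.489% of all genes tested did. At an unadjusted p under 0.05 there were 2, Ccl5 and Nkg7, and 3.42% of all genes tested. With a common dispersion in place of the trend, the same 2 passed, and 312 genes in place of 66. Without replicate 2 there were 34 genes, and without replicate 3 there were 33.

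Ccl5 had an unadjusted p of 0.00108 and an adjusted p of 0.161 by edgeR, which lay between 3.39e-05 and 1.00 over the alternatives. Between its libraries the level spanned 1.44 on the log2 CPM scale. Nkg7 spanned 1.07, with an unadjusted p of 0.0408 and an adjusted p of 1.00 by edgeR, between 0.0305 and 1.00 over the alternatives. In both genes replicate 3 was the library farthest from the others. The steadiest were Klrd1 and Gzmm, which each spanned 0.06, and Prf1 spanned 0.16.

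Gzmk and Gzmb fell under the mean count of 10. In the fit with a mean count of 1, Gzmk had an unadjusted p of 0.000338 and an adjusted p of 0.0818 by edgeR, and Gzmb an unadjusted p of 0.228. Without replicate 4, Gzmk passed with an adjusted p of 0.0373. Nkg7, Ccl5 and Gzmk thus shared replicate 3 as their high library, and Gzma and Gzmb had replicate 4. Prf1, Klrd1 and Fasl were also highest in replicate 3, by smaller margins.

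Over the 10 genes, replicate 3 was the highest for 6, replicate 2 for 2 and replicate 4 for 2. Among all genes tested, those shares were 30.8%, 43.4% and 25.7%. The 2 sets differ, since the 10 genes include Gzmb and Gzmk, which were not among the genes tested. For Prf1, Klrd1 and Fasl, highest in replicate 3, the highest level was only 1.10, 1.06 and 1.19 times the lowest. The summed NK cell markers, which include the member Gzma, were lowest in replicate 3, at 18.2 TPM. The CD8 and memory lists were highest there, at 152 and 210 TPM. The CD8 sum was highest there through Runx3, since Cd8b1 was highest in replicate 2, Cd8a and Eomes were highest in replicate 4, and Crtam was lowest in replicate 3. Runx3 was highest in replicate 3 at 107 TPM, with an unadjusted p of 0.00190 and an adjusted p of 0.254 by edgeR. The part of these lists in the high values of replicate 3 was not tested.

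**Figure D4:**
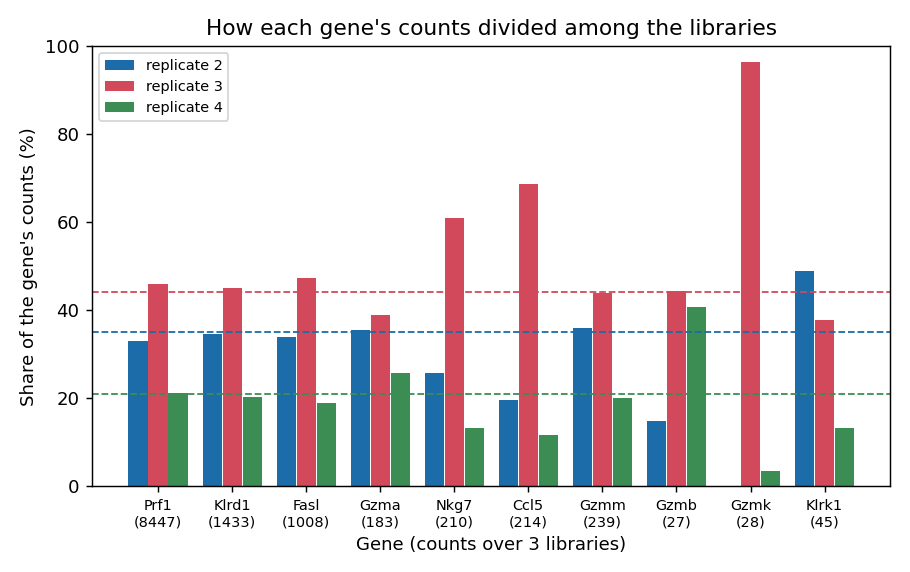
Share (%) of each gene's counts that came from replicates 2, 3 and 4, with dashed lines at the share of all counts in the same library and the pooled count under each name. Prf1, Klrd1, Fasl and Gzmm follow the lines, while replicate 3 gave 61.0% of Nkg7, 68.7% of Ccl5 and 96.4% of Gzmk counts.

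Within 100 kb of a member lay 55 protein-coding neighbours, 15 of them detected, beside 46.1% of all protein-coding genes. Members near other members are counted among these: Gzma, Gzmk, Klrd1 and Klrk1 among the 55, and Gzma and Klrd1 among the 15. Prf1 lay between Adamts14, at a mean of 15.5 TPM, and Pald1, at 0.0809 TPM. Klrd1 lies in the NK gene complex, where its neighbours Klre1 and Klrk1 were at 0.273 and 0.160 TPM. Nkg7 lay between Lim2, with 0 counts, and Cldnd2, at 0.0833 TPM, and Ccl5 between Heatr9, at 0.111 TPM, and Ccl9, at 0.0684 TPM. Gzmm lay between the widely used genes Cdc34, at 95.2 TPM, and Bsg, at 182 TPM. Gzma lay between Cdc20b, at 0.0229 TPM, and Gzmk. Esm1, with 1 count, lies within the span of Gzmk. Next to Gzmb was Gzmc, and next to Fasl was Suco, at 34.5 TPM.

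Promoter sequence was read for 8 of the 10 genes, all but Klrd1 and Ccl5, in 9 windows, since Gzmm has 2. Each window holds 250 bases before and 50 after a RefSeq start on GRCm38.p6. Gzmk and Nkg7 were chosen for display by their high values in replicate 3, where Prf1 was also highest, at 90.2 against 81.8 and 86.5 TPM. Shown are the 250 bases before the start of the highest gene, Prf1, of the low granzyme gene Gzmb, and of Gzmk and Nkg7. They lie at chr10:61297586-61297835 on the plus strand, chr14:56262335-56262584 on the minus strand, chr13:113180966-113181215 on the minus strand, within the deposited span of Gzmk, and chr7:43436888-43437137 on the plus strand. The ends of the Prf1 and Nkg7 stretches also reach into the deposited spans of those genes. Capitals mark matches on either strand to the Runx core TGTGGT, the T-box core GGTGTGA, the AP-1 site TGANTCA, the ETS core GGAAGT and the CRE half-site TGACGT, and no match shown overlaps another.
Prf1: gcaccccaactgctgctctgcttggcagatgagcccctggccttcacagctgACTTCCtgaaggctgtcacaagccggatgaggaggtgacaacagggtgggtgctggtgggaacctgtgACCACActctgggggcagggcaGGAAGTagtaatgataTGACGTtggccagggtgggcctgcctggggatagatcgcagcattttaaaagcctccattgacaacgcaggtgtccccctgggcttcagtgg
Gzmb: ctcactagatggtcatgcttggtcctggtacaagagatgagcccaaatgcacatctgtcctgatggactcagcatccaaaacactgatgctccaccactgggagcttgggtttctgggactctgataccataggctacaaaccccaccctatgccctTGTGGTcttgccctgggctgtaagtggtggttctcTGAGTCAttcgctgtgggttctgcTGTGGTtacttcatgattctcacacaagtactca
Gzmk: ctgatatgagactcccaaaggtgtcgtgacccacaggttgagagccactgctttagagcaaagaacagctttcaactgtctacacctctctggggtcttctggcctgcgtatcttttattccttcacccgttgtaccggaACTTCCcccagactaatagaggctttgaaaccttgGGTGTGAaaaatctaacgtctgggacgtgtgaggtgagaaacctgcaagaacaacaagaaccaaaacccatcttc
Nkg7: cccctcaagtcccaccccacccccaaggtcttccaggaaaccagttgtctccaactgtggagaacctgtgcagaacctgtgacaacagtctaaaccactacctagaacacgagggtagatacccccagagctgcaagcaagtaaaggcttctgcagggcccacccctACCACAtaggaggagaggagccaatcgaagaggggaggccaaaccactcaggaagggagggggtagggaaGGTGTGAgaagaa
The Runx core occurred in 6 of the 9 windows and in 16.8% of 32851 windows of all genes. The T-box core occurred in 3, those of Gzmk, Nkg7 and the second start of Gzmm, and in 3.98% of all. AP-1 occurred in 2 (7.81% of all), the ETS core in 3 (23.8%) and the CRE half-site in 2 (7.51%), the last 2 motifs having been added after the windows were seen. Nkg7 and Gzmk both hold a T-box core, 13 and 75 bases before the RefSeq start, and in both genes it lies within the deposited span. Prf1, which was also highest in replicate 3, and Gzmb hold none in this window. Gzmm, with a T-box core at its second start, was highest in replicate 2. Any link between these matches and the high values of replicate 3 was not tested. A match is a run of letters and does not show that a factor was bound.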

How the data were processed

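RNA of mouse T cells was sequenced in 3 libraries of 1 group. Per the file headers, the deposited values are raw counts of read pairs, made by the authors gene by gene with featureCounts 1.4.6-p4 over the exons of GENCODE vM13 on mm10, with both ends aligned and reverse-strand counting. Each deposited table lists a summed exon length beside the count. The aligner's settings were not given in the sources used here.

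TPM were computed from counts and exon lengths. Symbols matched 50376 of 50600 identifiers, biotypes came from GENCODE M21, and promoters from RefSeq. The test for variation was that of edgeR 4.0.16, run in R 4.3.3 (intercept-only negative binomial goodness of fit, TMM scaling, trended dispersion, mean count of 10 or more, Benjamini-Hochberg adjustment over all genes tested). The test was tried on simulated data with known answers. Pooled ratios carry exact binomial intervals at 95% confidence, and the floor was 3 counts. Log2 CPM used a prior count of 2. Other tools were Biopython 1.88, matplotlib 3.10.9, pandas 2.3.3, scipy 1.17.1 and numpy 2.4.6 under Python 3.11.15.

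The members and the 18 other lists were chosen with earlier results of these data known. Genes named were the members, the 3 highest genes of each list, list genes with 0 counts and the nearest protein-coding neighbours. Others, such as Gzmb's inhibitor gene, the Klrc genes, Rab27a, Tyrobp, Eomes, Il2rb, Cd8a, Xist and Ddx3y, were chosen after their values were seen. A planned comparison of proteins was replaced by one of coding sequences. Alternatives were other thresholds, scalings, pseudocounts, count minimums, a common dispersion, a narrower window and each replicate left out. Raet1a, Raet1b, Raet1c and Vamp7 found no match and were not analysed here.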

Additional observations from a re-analysis of the deposited data

How the results depend on the processing

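With 3 libraries of 1 group, no comparison between conditions could be made, and p-values rest on the spread between these libraries. No paired analysis was possible because there is only 1 group. Depth limits Gzmb, Gzmk and Klrk1 most, with 27, 28 and 45 counts.

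The count of 7 members at 1 TPM held at 0.5 and 2 TPM, by the mean and without any replicate, and was 3 at 5 TPM. Without length correction, Gzmm over Gzma turned to 1.31, and the ratios became 46.2 for Prf1 over Gzma, 313 over Gzmb, 35.3 over Gzmm and 31.8 for Klrd1 over Klrk1. A pseudocount of 1 gave 13.0, 56.8, 16.5 and 26.2 for the same 4 ratios, and 0.1 gave 116 for Klrd1 over Klrk1. Principal transcript lengths, added after seeing the data, gave 18.4 for Prf1 over Gzmm and 45.2 for Klrd1 over Klrk1. Leaving out each replicate gave 109 to 2455 for Prf1 over Gzmk, 158 to 228 for Klrd1 over Klrk1 and 0.00564 to 0.150 for Gzmk over Gzma, the extremes of both Gzmk ratios without replicates 2 and 3. Members called as varying, 0 in the report, were 2 under a common dispersion, and 0 to 1 with each replicate left out. Genes called among all tested, 66 in the report, were 312 under a common dispersion and 33 to 45 with each replicate left out. Where the length or the pseudocount was changed, the ratios moved by construction, and for the other settings the cause was not tested.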

Other observations

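Among the 66 genes called as varying by edgeR's goodness of fit, replicate 2 was the farthest library for 31, replicate 3 for 16 and replicate 4 for 19. The following were chosen after their values were seen. Slc9a9, a gene of an endosomal sodium and proton exchanger, had 8.65, 25.1 and 6.80 TPM in replicates 2, 3 and 4, so that replicate 3 was its high library, as for Ccl5, Nkg7 and Gzmk (adjusted p = 6.15e-24 by edgeR). Rnase6, a secreted ribonuclease gene, had 15, 69 and 2 counts (adjusted p = 0.0248), and Echdc2 had 9, 77 and 4 counts (adjusted p = 0.00852 by edgeR). Of the 16 genes farthest in replicate 3, only Slc9a9, Rnase6, Echdc2 and Tuba1c were highest there. The rest were lowest there, among them Acvrl1, at 62.4, 27.0 and 50.6 TPM. The heat shock genes Hspa1a and Hspa1b were also lowest in replicate 3, at 18.3, 3.26 and 61.9 TPM and at 86.0, 23.9 and 237 TPM. What these genes share with the cytotoxic ones in replicate 3 was not tested.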
